A study of Homo sapiens with 6 samples.

Results

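The loci of TSHZ3, ZNF536, SOX1, CNTNAP5, GYPC and WT1, 6 of 19111 autosomal protein-coding genes, were chosen by the presence of ATAC-seq peaks in WT cells, in or beside runs of peaks that had no counterpart in PIK3CA knock-in cells. The same peak calls thus selected the loci and are described here, without a test. Every peak overlapping a gene body or the 200 kb on either side of it was taken, and a promoter was the canonical start with 1 kb on either side. MCF-10A is a non-tumorigenic human breast epithelial cell line, and ATAC-seq marks the DNA that a transposase can reach. The groups were a line with the E545K change knocked into PIK3CA, the gene of a catalytic PI3K subunit (2 samples), a line with H1047R (2 samples), and the parental cells with unedited PIK3CA, called WT (2 samples). Both knock-in lines had been kept without EGF and the parental cells with 20 ng/ml EGF. All 3 then spent 24 h in medium with 0.2 ng/ml EGF and 1% stripped serum, insulin, hydrocortisone and cholera toxin, so genotype and earlier EGF supply cannot be told apart. The labels describe both knock-ins as lines made earlier and do not say whether each is 1 clone.

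The loci include 4 genes of transcription factors. TSHZ3 encodes a teashirt zinc-finger homeobox factor that in the mouse is needed for smooth muscle of the ureter, and ZNF536 a zinc-finger factor described as a brake on neuronal differentiation. SOX1 encodes an HMG-box factor of neural progenitors, and WT1 a zinc-finger factor of the developing kidney and gonad. CNTNAP5 encodes an adhesion protein of the neurexin family found mainly in the nervous system, and GYPC encodes glycophorin C, a sialoglycoprotein that ties the red cell membrane to its skeleton. Factor genes of neural and kidney development are usually silent in tissues of another fate, where their CpG-rich starts are often held by Polycomb proteins. Open sites far from a start can be enhancers, silencers or sites without known function, and a peak position alone does not tell which.

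The E545K list held 89416 peaks, the H1047R list 106747 and the WT list 98910, each called by the authors on both samples of a genotype together. No value per sample, replicate spread or sequencing depth can be read from such lists. The strength given for a peak is its area under the peak caller's curve, a value that grows with both width and height and whose smallest entry was 200 in each list. A missing peak says that no interval reached the caller's floor. It does not measure the signal below that floor or the number of copies of the DNA. A peak in all 3 lists was found at 65.5% of coding promoters and in none at 30%. All 6 general epithelial markers, such as CDH1 and EPCAM, and 7 of 8 basal markers, such as KRT5 and KRT17, had a promoter peak in E545K, H1047R and WT. The basal exception was the canonical start of TP63. None of 5 erythroid markers had one in any list. One was called in all 3 lists for 1 of 5 immune, 1 of 5 endothelial, 2 of 6 fibroblast and 3 of 5 neural markers. Outside the epithelial lists, a promoter peak in some lists was found at CDH5 (WT alone, area 204.5), SPI1 (E545K alone, 408), PAX6 (H1047R alone), and PDGFRA and NCAM1 (E545K and WT).

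Across the 6 windows, which did not overlap, E545K held 7 peaks, H1047R 11 and WT 48. Of the WT peaks, 39 had no partner in either knock-in list, a partner being a peak that overlaps by at least 1 bp. That was 81.2% (95% Wilson interval 68.1 to 89.8, counting error only), beside 8.21% of the whole WT list, a contrast that the choice of loci built in. Against each knock-in alone, 41 of the 48 lacked an E545K partner and 39 an H1047R partner, beside 20.3% and 11% of the whole list. In the other direction, none of the 7 E545K peaks and 2 of the 11 H1047R peaks lacked a WT partner, beside 12.6% and 17.9% of those lists. The loci were not alike. The windows of TSHZ3, SOX1, CNTNAP5 and GYPC held no knock-in peak, that of ZNF536 had few peaks in any list, and that of WT1 was mostly shared. The description "open only in wild-type" therefore covers whole windows of this size at 4 loci and single sites at ZNF536 and WT1. With 500 kb on either side, 18 of 18 WT peaks at TSHZ3, 9 of 9 at CNTNAP5, 13 of 14 at SOX1 and 4 of 18 at GYPC lacked a partner. With areas of at least 2 times the smallest, the WT-only count was 9 at TSHZ3, 8 at SOX1, 1 at CNTNAP5 and 1 at GYPC.

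**Figure D1:**
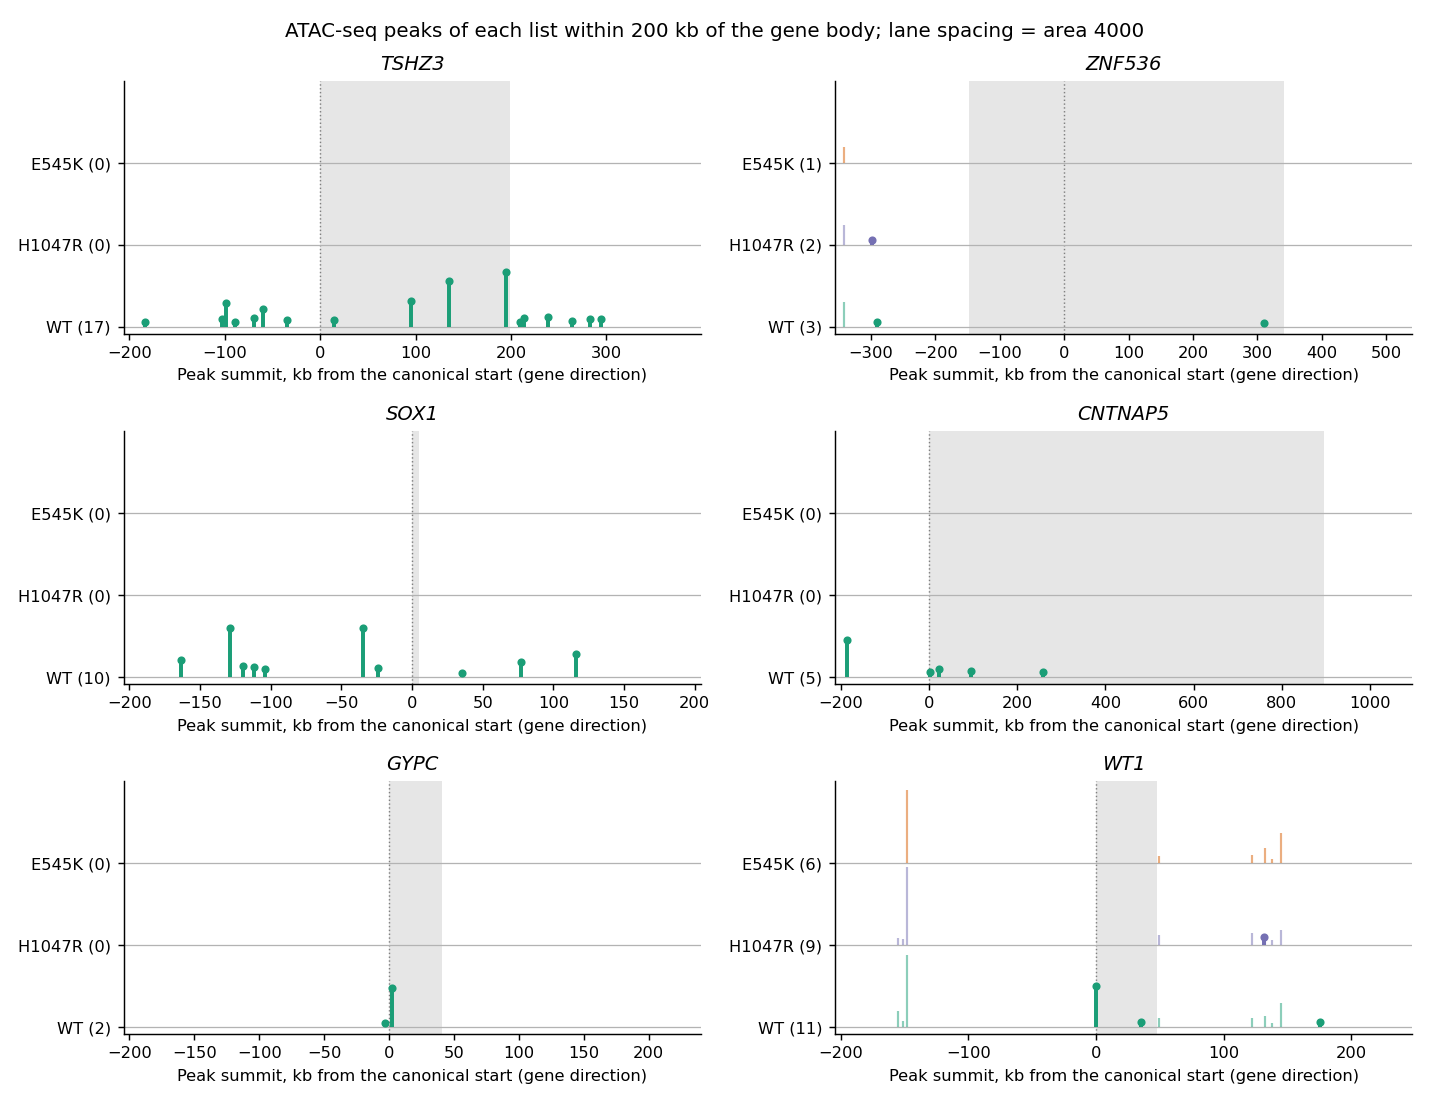
Peaks of the E545K, H1047R and WT lists (lanes from top to bottom, number of peaks in brackets) in the windows of the 6 genes, by distance of the summit from the canonical start in kb, in the direction of the gene. Stem height is peak area, with the lane spacing equal to 4000. Thick stems with a dot have no partner (for WT, in neither knock-in; for a knock-in, not in WT), and grey marks the gene body. The lanes of both knock-ins are empty at TSHZ3, SOX1, CNTNAP5 and GYPC, where WT has 17, 10, 5 and 2 peaks.

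TSHZ3 (ENSG00000121297.8, hg38 chromosome 19, 31149979 to 31349436, minus strand) had 0 peaks in E545K, 0 in H1047R and 17 in WT. These ran in area from 239.6 through a median of 412.8 to 2705. Only SYNE2 among coding genes had as many WT-only peaks in its window, so TSHZ3 shared the highest count. The 4 peaks inside the gene were all intronic, and 3 of them were the strongest of the window. These lay at 195 kb (area 2705, summit -log10 p 8.09), 135 kb (2242 and 7.81) and 95.02 kb (1279 and 5.97) from the start, the first close to the 3′ end of the gene. Upstream of the start, the strongest was an intergenic peak at -99.1 kb with an area of 1166, followed by one of 863 at -59.5 kb in an intron of TSHZ3-AS1, the antisense RNA gene. The start itself had no peak in any list, and the nearest WT peak was 15.0 kb into the gene (area 332). The canonical starts of TSHZ3 and TSHZ3-AS1 lie 555 bp apart, so both were without a promoter peak. The sequence around the summit of the strongest peak is shown because this site, at the 87.2 percentile of all WT peaks by area, had no call in either knock-in. It is chr19:31154068-31154268, hg38 plus strand, with capitals marking a TEAD element.
TSHZ3 intron, 195 kb: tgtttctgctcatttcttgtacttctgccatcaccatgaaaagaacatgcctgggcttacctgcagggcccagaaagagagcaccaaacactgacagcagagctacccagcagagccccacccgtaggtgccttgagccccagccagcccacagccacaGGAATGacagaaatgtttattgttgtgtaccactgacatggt

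ZNF536 (ENSG00000198597.10, chromosome 19, 30224891 to 30713586, plus strand), which lies beside TSHZ3, had 1 peak in E545K, 2 in H1047R and 3 in WT. A peak at the far edge of the window, nearer to the start of URI1, was present in all 3, with an area of 783 in E545K, 968 in H1047R and 1218 in WT. Both other WT peaks had no partner and were weak. One, with an area of 230, lay at -290 kb from the canonical start in an intron of a noncoding gene, and the other, of 201, at 311 kb in an intron of ZNF536. The second was just above the floor of 200 and was the only peak of any list within the gene body. H1047R had 1 peak of its own at -299 kb (area 262). The canonical start lies within the gene, and none of the 4 starts that RefSeq annotates for ZNF536 was covered by a peak. With lists cut to equal length, the count of WT-only peaks in this window was 0, against 2 with the full lists.

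SOX1 (ENSG00000182968.5, chromosome 13, 112067149 to 112071706, plus strand), a gene of 4.56 kb, had 0 peaks in E545K, 0 in H1047R and 10 in WT. These ran in area from 213 through a median of 628 to 2414. None of the 10 lay in the gene, and its start had no peak in any list. Upstream lay 7, led by peaks at -34.8 kb (area 2414, summit -log10 p 7.29) and -129 kb (2398 and 7.28), and 3 lay downstream, the strongest of 1117 at 116 kb. One downstream peak fell in an intron of SOX1-OT, a noncoding gene that overlaps SOX1, and the other 9 were intergenic. By the count of WT-only peaks, SOX1 ranked 15 among the 19111 coding windows, in a tie, since 37 windows held at least 10. Counts at the other loci were less rare. At least as many were held by 1144 windows for CNTNAP5 (5 peaks) and 4913 for WT1 (3 peaks). For ZNF536 and GYPC, with 2 peaks each, 9050 windows held at least as many. These counts, like that of TSHZ3, were not scaled by window length. Among the 6 genes that length ran from 405 kb at SOX1 to 1296 kb at CNTNAP5. The leading upstream site is shown as chr13:112032276-112032476, hg38 plus strand, with an E-box in capitals.
SOX1, -34.8 kb: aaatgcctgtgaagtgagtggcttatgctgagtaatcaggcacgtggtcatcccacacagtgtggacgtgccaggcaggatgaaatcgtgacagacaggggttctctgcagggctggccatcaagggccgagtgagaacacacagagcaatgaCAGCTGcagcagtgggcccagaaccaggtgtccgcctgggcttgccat

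CNTNAP5 (ENSG00000155052.15, chromosome 2, 124025287 to 124921219, plus strand) is a gene of 896 kb. Its window had 0 peaks in E545K, 0 in H1047R and 5 in WT. An intergenic peak at -185 kb was the strongest, with an area of 1827 and a summit -log10 p of 5.97. Within the gene lay 4 weak intronic peaks in the first 258 kb of the gene, at 2.04, 23.6, 95.3 and 258 kb from the start, with areas of 236, 382, 286 and 267. The one at 2.04 kb lay outside the promoter window of 1 kb. The start, 114 bp from that of the divergent noncoding gene CNTNAP5-DT, had no peak in any list. The leading site is chr2:123840074-123840274, hg38 plus strand, and the capitals mark a RUNX element.
CNTNAP5, -185 kb: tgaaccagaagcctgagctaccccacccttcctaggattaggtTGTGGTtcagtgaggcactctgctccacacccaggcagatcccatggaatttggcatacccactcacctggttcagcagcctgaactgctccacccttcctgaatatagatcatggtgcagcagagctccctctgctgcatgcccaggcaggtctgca

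GYPC (ENSG00000136732.16, chromosome 2, 126656133 to 126696667, plus strand) had 0 peaks in E545K, 0 in H1047R and 2 in WT. One had an area of 1917 and a summit -log10 p of 6.50, and lay 1.92 kb downstream of the canonical start. The other was an intergenic peak at -3.47 kb with an area of 219. The strong peak (chr2:126657299-126658466) covered part of an exon of a GYPC transcript without a defined coding sequence, and its nearer edge lay just beyond the promoter window. The summit region is chr2:126657981-126658181, hg38 plus strand. Capitals mark an E-box, then an AP-1 element.
GYPC, 1.92 kb: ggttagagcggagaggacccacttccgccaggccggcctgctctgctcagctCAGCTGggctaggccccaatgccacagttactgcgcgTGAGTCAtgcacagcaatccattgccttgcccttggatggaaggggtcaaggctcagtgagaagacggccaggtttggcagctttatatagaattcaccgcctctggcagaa

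WT1 (ENSG00000184937.16, chromosome 11, 32387775 to 32435564, minus strand) had 6 peaks in E545K, 9 in H1047R and 11 in WT. It was the 1 locus of the 6 with a promoter peak, and that peak was in WT alone (chr11:32434504-32435904, area 2023, summit -log10 p 4.09). Of 19111 coding promoters, 109 (0.57%) had a peak in WT alone. The peak was broad for its height. It was 1401 bp wide, and its summit value was below the median of all WT peaks, 4.25, while its area was at the 82.0 percentile. It also covered the start of WT1-AS, an antisense RNA gene whose start lies 83 bp away, so the peak cannot be given to either gene alone. A second WT-only peak inside WT1, at 35.1 kb (area 264), covered an internal start that RefSeq annotates at 32400400. Of the 4 RefSeq starts of WT1, the canonical and this internal one were covered by a WT peak, and none by a knock-in peak. The third WT-only peak of the window, of 251, lay at 176 kb.

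The rest of the WT1 window was mostly shared. Its strongest peak, at the promoter of the neighbouring gene EIF3M, had an area of 3573 in E545K, 3795 in H1047R and 3537 in WT. Downstream of WT1, a peak at 145 kb had 1481 in E545K, 759 in H1047R and 1185 in WT, and the nearest shared peak, at 49.4 kb, had 340 in E545K, 519 in H1047R and 451 in WT. Of the 11 WT peaks, 8 had a partner in at least 1 knock-in list, and 2 of these, in EIF3M introns, in H1047R alone. H1047R had 1 peak without a WT partner, at 132 kb with an area of 387. The calls missing from both knock-ins in this window were thus the 2 that touch the gene and 1 weak distal peak.

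The upstream sequences of both covered WT1 starts are shown, since these were the only starts of the 6 genes under a WT peak. They come from RefSeq (GRCh38.p14) and run 5′ to 3′ on the minus strand. The first is chr11:32435565-32435789, with capitals for an E-box, a KLF-SP element read on the other strand and a second E-box. The second is chr11:32400401-32400650, with capitals for a TEAD and an AP-1 element.
WT1 canonical start, upstream: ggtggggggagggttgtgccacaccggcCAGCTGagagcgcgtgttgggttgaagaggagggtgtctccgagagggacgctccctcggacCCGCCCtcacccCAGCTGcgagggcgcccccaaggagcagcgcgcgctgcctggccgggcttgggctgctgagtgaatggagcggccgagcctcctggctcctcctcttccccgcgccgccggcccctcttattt
WT1 internal start, upstream: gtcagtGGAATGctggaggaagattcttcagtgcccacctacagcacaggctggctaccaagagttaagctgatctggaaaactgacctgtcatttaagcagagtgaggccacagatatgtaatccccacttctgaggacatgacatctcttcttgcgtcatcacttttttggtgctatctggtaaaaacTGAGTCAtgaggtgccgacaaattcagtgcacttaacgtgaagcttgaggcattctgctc

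The other 5 genes had no promoter peak in any list, although 4 of them, TSHZ3, SOX1, CNTNAP5 and GYPC, have CpG-rich canonical starts. Within 500 bp of the start, GC content was 76.8% at TSHZ3, 73.3% at SOX1, 58.2% at CNTNAP5, 64.2% at GYPC, 68.0% at WT1 and 44.3% at the internal canonical start of ZNF536. The ratio of observed to expected CpG was 0.89, 0.92, 0.84, 0.68, 0.69 and 0.24 in the same order. The other RefSeq starts of ZNF536 were richer, with 58.3%, 78.7% and 63.7% GC and 21, 49 and 28 CpG in windows of 300 bases, and had no peak either. Of 11595 coding starts with at least 55% GC and a ratio of at least 0.6, 1384 (11.9%, 11.4 to 12.5) had no promoter peak in any list, against 57.8% (56.7 to 58.9) of the 7516 others. These 4 starts thus belonged to a minority of CpG-rich starts without a call within 1 kb in E545K, H1047R or WT. For GYPC and CNTNAP5 this hung on the cutoff, since the nearest WT summits lay at 1.92 and 2.04 kb. With 2 kb on either side both had a promoter peak in WT alone. At TSHZ3 and SOX1 the nearest lay 15.0 kb into the gene and at -24.4 kb. Over the 39 WT-only peaks, the distance to the nearest coding start had a median of 104 kb and ran up to 311 kb, beside medians of 54.4 kb for all 8118 WT-only peaks and 35.2 kb for all WT peaks. Only the WT1 promoter peak lay within 1 kb of a coding start. By summit, 19 were intergenic, 9 in introns and 2 in exons of coding genes, and 9 in noncoding genes.

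Beyond the windows, the WT-only peaks formed runs inside long stretches with no peak of either knock-in. At TSHZ3 and ZNF536 that stretch ran 2.25 Mb, from 30073534 to 32322560 on chromosome 19, and held 22 WT peaks. Of these, 19 lay in the windows of the 2 genes and 3 beyond, on the far side of TSHZ3, with areas of 271 to 566. ZNF536 and TSHZ3 were the only coding genes it touched. The stretch without peaks was 2.29 Mb in E545K and 2.25 Mb in H1047R, whereas the longest gap between WT peaks within it was 0.601 Mb. At SOX1 the stretch was 0.969 Mb (chromosome 13, 111474918 to 112444038) and held 12 WT peaks, 2 of them outside the window with areas of 1001 and 258. It touched 1 further coding gene, SPACA7. CNTNAP5 and GYPC shared 1 stretch of 3.99 Mb (chromosome 2, 122980971 to 126971475) with 14 WT peaks, of which 7 lay outside both windows and had areas of 308 to 664. Its longest gap between WT peaks was 1.25 Mb, and TEX51 was the third coding gene it touched. At WT1 the stretch was 0.197 Mb with 2 WT peaks.

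Each stretch ended by definition at the nearest peak of either knock-in, so knock-in peaks at its edges were built in. Most WT peaks beside the stretches had a partner, as did most of the whole WT list, of which 8.21% had none. In the 500 kb to either side of the TSHZ3 stretch, E545K had 26 and 15 peaks, H1047R 32 and 17, and WT 28 and 17, of which 27 and 16 had a knock-in partner. Beside the SOX1 stretch there were 16 and 20 peaks in E545K, 19 and 26 in H1047R, and 19 and 23 in WT, of which 18 and 21 had a partner. Beside the stretch of CNTNAP5 and GYPC there were 9 and 36 in E545K, 6 and 31 in H1047R, and 8 and 33 in WT, of which 6 and 30 had a partner. The edges lay near each other in both knock-ins at SOX1, where the peak-free interval began at 111474767 in E545K and 111474918 in H1047R and ended at 112444038 in E545K and 112444042 in H1047R. At ZNF536 they lay further apart, at 30030553 in E545K and 30073534 in H1047R, because of the weak peak found in H1047R alone. The other end of that stretch lay at 32322573 in E545K and 32322560 in H1047R. At CNTNAP5 and GYPC the interval began at 122980953 in E545K and 122980971 in H1047R. It ended at 126971475 in E545K and 126972060 in H1047R. WT had 9.78 peaks per Mb at TSHZ3, 12.4 at SOX1 and 3.51 at CNTNAP5 and GYPC. The WT list was itself sparse at these loci. The windows held 17 WT peaks at TSHZ3, 3 at ZNF536, 10 at SOX1, 5 at CNTNAP5, 2 at GYPC and 11 at WT1. Over coding windows with at least 1 WT peak the median was 25, not scaled by window length.

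**Figure D2:**
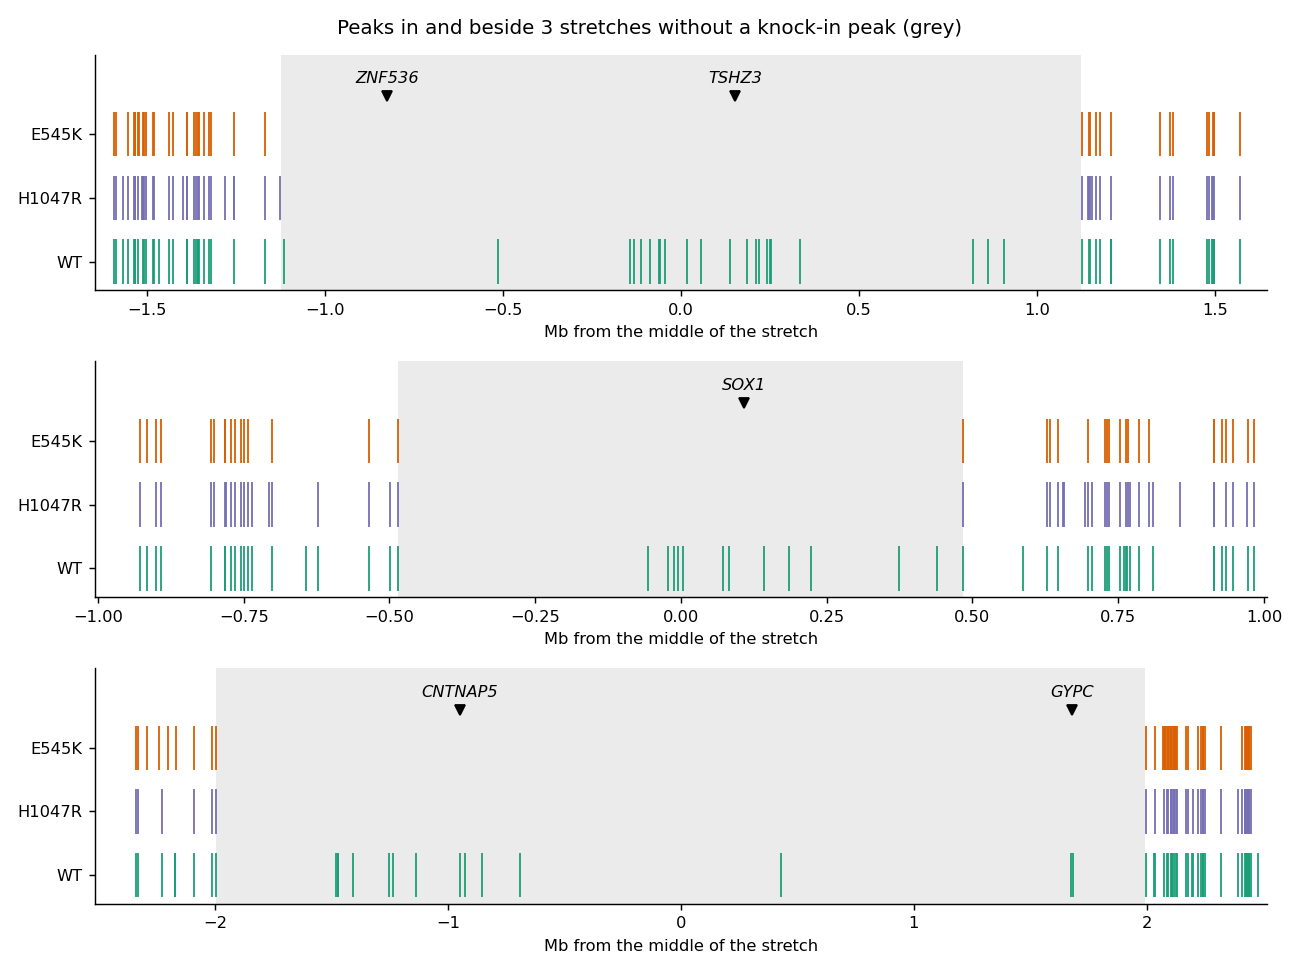
Positions of E545K, H1047R and WT peaks (rows from top to bottom, 1 tick per peak) in 3 stretches without a knock-in peak (grey) and the 500 kb on either side, in Mb from the middle of the stretch. Triangles mark the canonical starts. The 22, 12 and 14 WT peaks inside the grey areas face empty rows of both knock-ins, while the flanks are filled in all 3 rows.

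Runs of this length were rare in the WT list. Of 6900 stretches that held WT peaks and no knock-in peak, 88.5% held a single WT peak and 11 (0.159%) held 10 or more. Those 11 included the stretches of TSHZ3 with ZNF536 (rank 1), CNTNAP5 with GYPC (rank 5, tied) and SOX1 (rank 7). The other lists were read the same way, by peaks of 1 list in stretches without a peak of either other list. The E545K list had 2 stretches of 10 or more among 4356 and the H1047R list 1 among 11235. H1047R nonetheless had the most peaks of its own (13310, or 12.5%, against 5450, or 6.10%, in E545K and 8118, or 8.21%, in WT). At 5 peaks or more the order was another, with 61 stretches in E545K, 23 in H1047R and 41 in WT, and stretches of a single peak made up 85.5% in E545K and in H1047R. The longest held 10 peaks in E545K, 14 in H1047R and 22 in WT. Among 18578 coding windows with at least 5 WT peaks, 8 (0.0431%) had no peak of either knock-in. They were those of TSHZ3, SOX1 and CNTNAP5 and, outside the 6 genes, AJAP1, GALNT17, OPCML, XYLT1 and PTPRT.

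**Figure D3:**
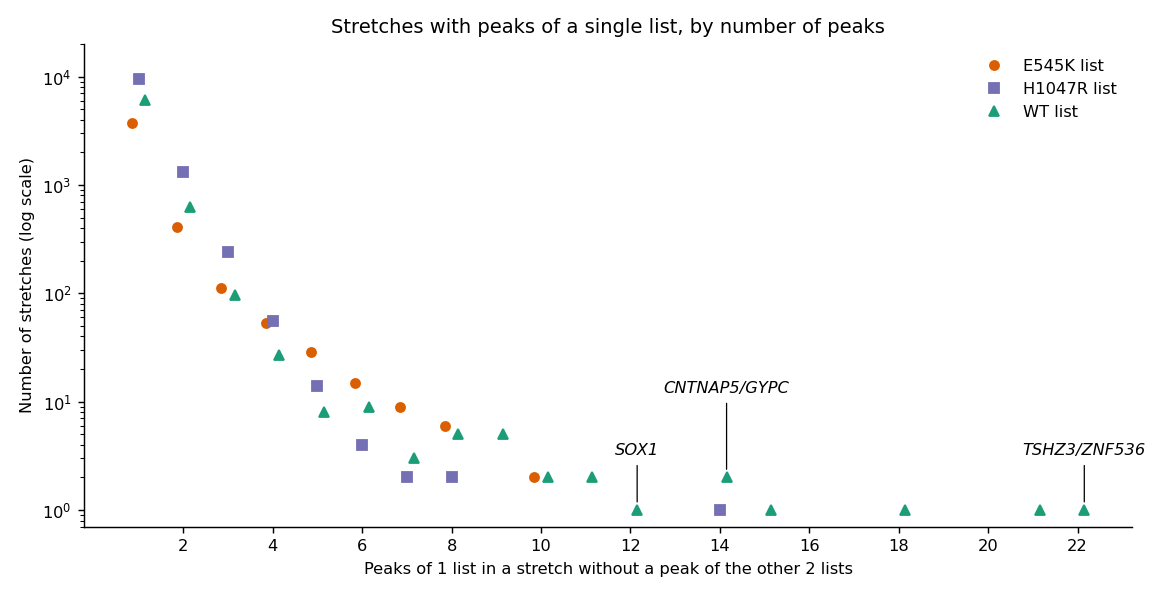
Number of stretches (log scale) by the number of peaks of 1 list they hold between peaks of the other lists, for E545K, H1047R and WT, with points set slightly apart. The stretches of SOX1, CNTNAP5 with GYPC, and TSHZ3 with ZNF536 are marked at 12, 14 and 22 peaks, where the highest values are 10 for E545K and 14 for H1047R.

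The pattern was compared with other loci by the longest run of consecutive WT-only peaks in a window, which was 17 at TSHZ3, 10 at SOX1, 5 at CNTNAP5, and 2 at ZNF536, GYPC and WT1. Runs were cut at the window edges. Uncut, other stretches of the WT list without a knock-in peak held 21, 18 and 15 WT peaks. Each held more than the stretch of SOX1 or that of CNTNAP5 with GYPC. In coding windows not overlapping those of the 6 genes, the longest cut runs were 11 at AJAP1, an adherens junction gene, and 10 at SYNE2, a nuclear envelope gene. ADGRB3, an adhesion receptor gene of neurons, also had 10, and ICE1 and AURKA had 8 each. Most of these windows also held knock-in peaks. AJAP1 had 0 in E545K, 0 in H1047R and 11 in WT, and ADGRB3 had 1, 0 and 13. SYNE2, by contrast, had 33 in E545K, 38 in H1047R and 52 in WT. A likeness in run length thus joined windows without a called knock-in peak, as at TSHZ3, SOX1 and AJAP1, with windows rich in shared peaks.

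The WT-only peaks of the 6 loci included strong ones. Their median area was 413 and their median width 331 bp, against 268 and 267 bp for all WT-only peaks and 651 and 466 bp for all WT peaks. Of the 18049 WT peaks with an area of at least 2000, 16 (0.0886%) lacked a partner in both knock-ins, and 5 of these lay in the 6 windows, 2 each at TSHZ3 and SOX1 and 1 at WT1. With an area of at least 1000 the counts were 87 of 34873 (0.249%) and 10. Since the loci had been chosen for such peaks, these shares describe the choice. The 9 WT peaks with a partner, all at ZNF536 and WT1, had a median area of 550 and reached 3537.

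**Figure D4:**
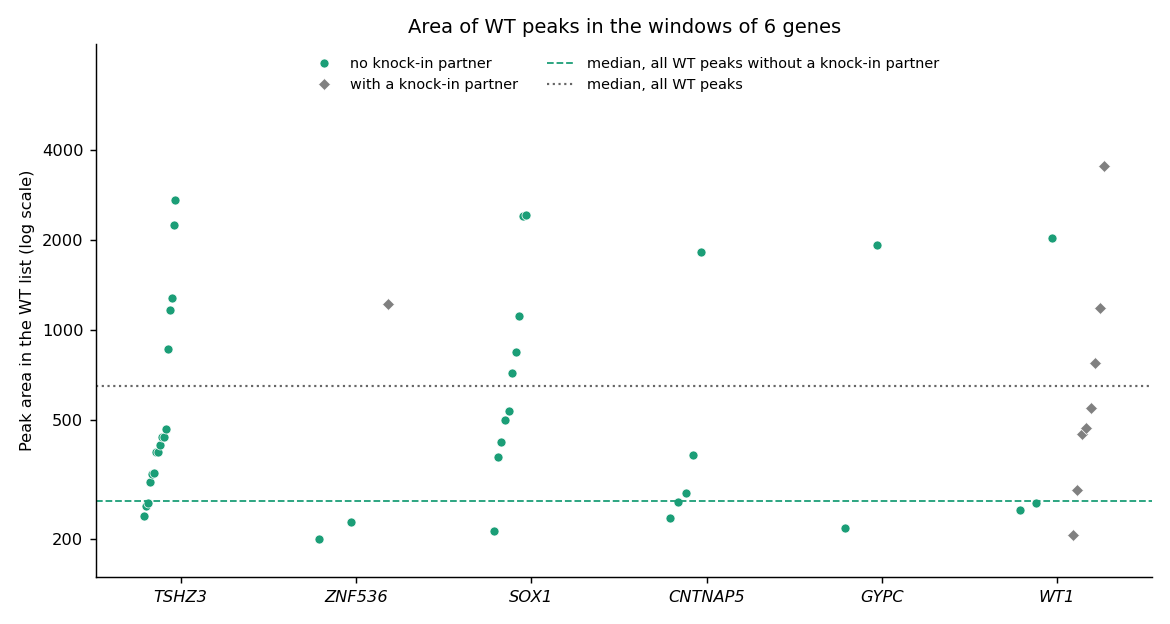
Area of each WT peak (log scale) in the windows of the 6 genes. Green circles are the 39 peaks without a knock-in partner, grey diamonds the 9 with one, and the lines mark the medians of all WT-only peaks (268) and of all WT peaks (651). TSHZ3, SOX1, CNTNAP5, GYPC and WT1 each have a WT-only peak above 1000.

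Within 100 bp of the summit, the 39 WT-only peaks had a median GC content of 50.2%, near the 49.3% of all WT peaks, and a median of 3 CpG against 2. The AP-1 element (TGANTCA) was found in 16 of them (41.0%, 27.1 to 56.6), beside 34.4% of all WT peaks and 28.2% of all WT-only peaks. The E-box CAGCTG was found in 10 (25.6%, 14.6 to 41.1) beside 13.8%, the TEAD element GGAATG in 7 (17.9%, 8.98 to 32.7) beside 18.1%, the RUNX element TGTGGT in 6 (15.4%) beside 16.4%, and the SOX element ACAATG in 6 (15.4%, 7.25 to 29.7) beside 10.2%. The KLF-SP element GGGCGG was found in 2 (5.13%, 1.42 to 16.9) beside 15.4% of all WT and 4.82% of all WT-only peaks. Both strands were read, and in the printed sequences no elements overlapped. The EGR-WT1 element (GCGTGGG) occurred in 0 of the 39, with an upper bound of 8.97%, beside 2.16% of all WT peaks. Of the 14 elements searched, the E-box was the 1 whose interval left out the share of the whole WT list. The intervals were not adjusted for the 14 elements and treat peaks of the same chosen locus as independent. An E-box difference was therefore not tested. In the 250 bases upstream of 35116 RefSeq starts, the E-box occurred in 14.0%, KLF-SP in 42.6%, TEAD in 11.9% and AP-1 in 6.57%.

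Relatives of the 6 genes were set beside the 19111 coding promoters, of which 65.5% had a peak in all 3 lists and 30% in none. TSHZ1 and TSHZ2 carried promoter peaks in all 3 lists, with areas of 5672 and 966 in E545K, 6727 and 900 in H1047R, and 5462 and 802 in WT, and their windows held 1 and 3 WT-only peaks. Of the ZNF536 relatives, ZNF423, ZNF516 and ZNF521 had a promoter peak in each list. For ZNF521 the area was 250 in E545K, 510 in H1047R and 938 in WT. Among SOXB factors, SOX2 and SOX21 carried promoter peaks throughout, whose areas for SOX2 were 708 in E545K, 1153 in H1047R and 466 in WT, while SOX14 had none. Of 5 contactin-associated protein genes, CNTNAP1 had a promoter peak in each list, CNTNAP3 in H1047R (266) and WT (310) and not in E545K, and 3 had none. Of 9 glycophorin and membrane skeleton genes, 1 had a promoter peak in each list and 6 had none. ANK1 had one in H1047R alone (436), and SPTB in H1047R (682) and WT (214).

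Among 15 genes of kidney and gonad development, 5 had a promoter peak in each list, 9 in none, and WT1 was the 1 gene with a peak in some lists. Of 16 neural development genes, 5 had a promoter peak in each list and 10 in none, so in both lists of genes the share with a peak throughout was below the 65.5% of all coding promoters. PAX6, a factor of the eye and brain, had one in H1047R alone (780). All 4 EGR genes, whose zinc fingers resemble those of WT1, had one in each list. By window, WT-only peaks made up 50% of WT peaks over the SOXB factors and 37.5% over the TSHZ genes, to which SOX1 and TSHZ3 gave 10 of 14 and 17 of 21. Over the kidney and gonad genes the share was 9.06%, near the 8.21% of the whole list.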

How the data were processed

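ATAC-seq libraries came from 6 samples of MCF-10A cells, 2 per genotype. Per the submitters' processing notes, the authors used Trim Galore 0.4.0 with cutadapt, FastQC, SAMtools, Genrich 0.6.1 and the hg38 build. The aligner and the peak caller's settings are not given in the sources used here. The authors deposited 1 peak list per genotype, with a peak area (a signal value not scaled between lists) and a -log10 p at the summit. The deposited score column was not used. Lists covered 22 autosomes, and 0 peaks lay beyond the ends of the hg38 reference. The lists carry no depth and no value per sample, so conditions were not tested.

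Genes were those of GENCODE release 44, and upstream sequences and their starts came from RefSeq GRCh38.p14, in which all 6 symbols matched. Peaks were compared by overlap in Python 3.11.15 with pandas 2.3.3, and shares carry Wilson 95% intervals. On simulated data, 140 of 140 planted runs were found, and 12 overlap counts differed from those of bedtools 2.31.1 in 0 cases. A run was a series of consecutive WT peaks without a partner, broken by a WT peak with one. Motifs numbered 14, of which CRE, CTCF, ETS, NFI, GATA, forkhead and homeobox elements occurred in 3 or fewer of the 39 peaks. The members, gene lists, motifs and settings were chosen with earlier results of these data known. Besides the 6 genes, the text names neighbours sharing a run or start. Members of the gene and marker lists with a promoter peak in some lists are named too. So are 5 coding genes elsewhere whose windows held the longest runs, cut at the window edges. Relatives named beyond these, the leading peaks and the area levels of 1000 and 2000 were chosen after their values were seen.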

Additional observations from a re-analysis of the deposited data

How the results depend on the processing

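No paired analysis was possible because each genotype has 1 list called on both samples together, and for the same reason no replicate could be left out. The count of 39 WT-only peaks was 34 with lists of equal length, 28 with windows of 100 kb, 52 with windows of 500 kb and 39 under both other definitions of a partner. It was 12 in gene bodies alone, 21 with areas of at least 2 times the smallest, and 13 and 11 among peaks at or above the list's median by area and by summit. Their share of WT peaks, 81.2%, was 100% in gene bodies and 46.8% with windows of 500 kb, and lay between 73.3% and 84.8% otherwise. The share over the whole WT list, 8.21%, was 9.22% when a partner had to cover 50% of the peak and 7.59% with partners within 500 bp. It was 8.60% with the higher area and 8.67% with lists of equal length, which cut all 3 lists before partners were sought. Peaks at or above the medians by area and by summit gave 0.623% and 0.472%, with partners sought in the full lists. Shares from cut lists and from full lists are thus not alike. The 2 knock-in peaks without a WT partner became 1 with windows of 100 kb or partners within 500 bp, 20 with windows of 500 kb, and 0 in gene bodies, with the higher area and above either median. Of the settings run for promoters, 2 kb on either side gave 3 genes with a peak in WT alone, WT1, GYPC and CNTNAP5. The rest gave 1, WT1. Settings for the stretches were chosen after seeing the data. Lists of equal length left 19, 11 and 12 WT peaks in the stretches of TSHZ3 with ZNF536, SOX1, and CNTNAP5 with GYPC, and the higher area left 11, 10 and 7. The lists carry no depth, so peaks near the floor of 200 are the least certain.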
